A study of Mus musculus with 6 samples.

Results

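The 10 genes described here, *Csf1r*, *Cd68*, *Lyz2*, *Mrc1*, *Timd4*, *Cd163*, *C1qa*, *C1qb*, *C1qc* and *Fpr1*, are genes by which tissue macrophages are commonly recognized. Each was found by its symbol, and all 10 had an entry among the 22513 genes of the expression table. The set was selected on measured RANKL responses as well as on gene function, because *Timd4* and *Fpr1* were known to be among the genes lowered most by RANKL in these libraries. Changes of the 10 genes with RANKL are therefore given as a description, without a test. RNA came from thymic lobes of E15.5 embryos on a C57BL/6 background, wild type (WT) or *Jmjd6*-/-, the latter bred from *Jmjd6*+/- parents and lacking the gene in every cell. All lobes, controls included, had been cultured as fetal thymus organ cultures (FTOC) with 2′-deoxyguanosine (2-DG), which kills dividing haematopoietic cells and leaves the stroma. The lobes were then left unstimulated, with 1 library per genotype, or stimulated with RANKL, the ligand of the receptor RANK, for 4 days, with 2 libraries per genotype. The labels call the paired libraries technical duplicates and the study calls them samples, so the p-values below measure the spread between libraries, which may be technical.

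Macrophages that settle in tissues are kept alive by signals through the CSF1 receptor, clear apoptotic cells and debris with lysosomal enzymes and scavenger receptors, and are a main source of complement C1q. In the thymus they take up the many thymocytes that die during selection, using receptors for phosphatidylserine such as TIM-4, encoded by *Timd4*. The same CSF1 receptor marks precursors from which RANKL drives osteoclast formation.

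Expression was measured as FPKM, the fragments of a gene scaled to its exon length and to all mapped fragments of the library, a level that can be compared between genes. The estimated depth was 15400000 to 31100000 fragments per library, and *Jmjd6* had 25.9 to 32.5 FPKM in the WT libraries and 1.32 to 1.96 FPKM in the *Jmjd6*-/- libraries. *Aire*, which RANKL induces in medullary epithelial cells, was at 0.142 and 0.473 FPKM without RANKL and at 67.1 to 79.7 FPKM with it. The WT RANKL libraries differed from each other by a median of 0.28 on the log2 scale over 12587 genes averaging 1 FPKM or more, and the *Jmjd6*-/- RANKL libraries by 0.08.

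Macrophage RNA was readily detected in this stroma after 2-DG, and only some of the markers held to be resident ones were detected. Of 18 further genes of macrophages in general, such as *Adgre1*, *Mertk* and *Ctss*, 17 had a mean of at least 1 FPKM. Of 19 further genes of resident macrophages and scavenger receptors, 8 did, and 13 had a mean of at least 0.1 FPKM. In this list 3, *Cd209b*, *Cd209d* and *Cd209g*, were listed at 0 in all 6 libraries. Over all 22513 genes, 12587 had a mean of at least 1 FPKM. *Vsig4*, a complement receptor of resident macrophages, stayed between 0 and 0.223 FPKM, and *Lyve1* between 0.0257 and 0.0887 FPKM. *Cd163*, the scavenger receptor for haemoglobin and haptoglobin, was at 0 in 5 libraries and at 0.00803 FPKM in WT RANKL replicate 1, about 1 fragment. A count of 3 fragments, the limit that a count of 0 allows for counting error, would equal 0.0225 to 0.0454 FPKM for this gene. *Cd163* was thus not detectable at this depth and did not pass the filter of a mean of 0.1 FPKM, and the other 9 genes did.

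The 9 detected genes spanned a wide range of levels. *Lyz2* led with 285 to 346 FPKM, and no other member came near it in any library. The 3 C1q chains followed at 69.1 to 146 FPKM, with overlapping ranges. *Cd68* lay at 25.2 to 40.4 FPKM, below every C1q value. *Csf1r* at 7.58 to 14.8 FPKM and *Mrc1* at 4.50 to 15.8 FPKM overlapped and changed places with RANKL. *Timd4* at 0.450 to 8.82 FPKM and *Fpr1* at 0.321 to 6.05 FPKM were the lowest of the 9 with RANKL, where they overlapped. Without RANKL *Timd4* lay above *Fpr1* and *Mrc1* in both libraries.

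**Figure D1:**
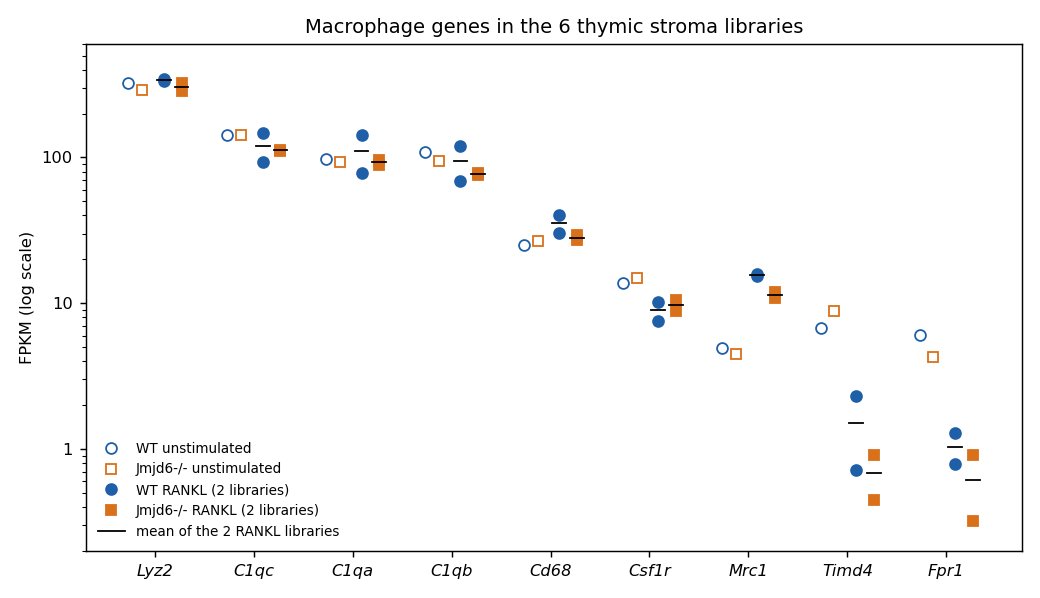
FPKM of the 9 detected genes (log axis), with 1 open symbol per unstimulated library, 1 filled symbol per RANKL library, circles for WT, squares for *Jmjd6*-/- and a line at the mean of the 2 RANKL libraries. *Mrc1* lies at 4.93 and 4.50 FPKM without RANKL and at 10.8 to 15.8 FPKM with it, while *Timd4* and *Fpr1* lie at 4.29 to 8.82 FPKM without RANKL and at 0.321 to 2.32 FPKM with it.

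The promoters of 8 of the 10 genes had an entry in the RefSeq table of GRCm38.p6. The 250 bases upstream of the start are shown for *Mrc1*, which was raised most in the RANKL libraries, for *Timd4* and *Fpr1*, which were lowered most, and for *C1qb*, which lay between them. Capitals mark matches on either strand to GAGGAA (a form of the PU.1 or ETS site, TTCCTC on the other strand), TTGCNNAA (C/EBP) and TGANTCA (AP-1). *Mrc1* lies at chr2:14229164-14229413 on the plus strand, *Timd4* at chr11:46810549-46810798 on the plus strand, *Fpr1* at chr17:17883940-17884189 on the minus strand and *C1qb* at chr4:136886201-136886450 on the minus strand.
Mrc1: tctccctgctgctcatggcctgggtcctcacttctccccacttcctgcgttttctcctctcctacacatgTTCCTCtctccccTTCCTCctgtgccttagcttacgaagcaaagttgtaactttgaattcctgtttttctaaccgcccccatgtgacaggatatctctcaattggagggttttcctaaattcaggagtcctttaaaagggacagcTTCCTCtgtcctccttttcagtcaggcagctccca
Timd4: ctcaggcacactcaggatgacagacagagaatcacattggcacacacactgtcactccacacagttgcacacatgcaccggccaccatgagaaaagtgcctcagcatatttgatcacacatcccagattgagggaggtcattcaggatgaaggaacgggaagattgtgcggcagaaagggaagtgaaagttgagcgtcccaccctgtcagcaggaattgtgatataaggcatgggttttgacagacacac
Fpr1: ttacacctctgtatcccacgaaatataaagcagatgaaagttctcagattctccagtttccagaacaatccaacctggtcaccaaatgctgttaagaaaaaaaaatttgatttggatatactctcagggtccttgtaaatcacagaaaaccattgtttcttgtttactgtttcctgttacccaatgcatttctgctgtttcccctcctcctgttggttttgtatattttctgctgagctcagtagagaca
C1qb: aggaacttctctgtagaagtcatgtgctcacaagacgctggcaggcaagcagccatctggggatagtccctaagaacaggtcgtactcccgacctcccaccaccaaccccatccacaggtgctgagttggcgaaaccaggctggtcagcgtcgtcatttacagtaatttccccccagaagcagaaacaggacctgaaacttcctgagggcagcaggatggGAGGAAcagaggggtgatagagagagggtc
*Mrc1* held 3 matches to GAGGAA, the first of them 180 bases before the start, and *C1qb* held 1, which lay 30 bases before it. Neither *Timd4* nor *Fpr1* held a match to any of the 3 motifs in this window, nor did *Lyz2* or *Cd163*. *Cd68* held 1 match to GAGGAA, 1 to TTGCNNAA and 2 to TGANTCA, and *C1qc* held 1 to GAGGAA. Among 32851 promoters of the same length, 23.3% held GAGGAA, 9.56% TTGCNNAA and 6.75% TGANTCA. A match is a run of letters and not evidence of binding. Other forms of these sites, such as the shorter GGAA, were not searched for, so a window without a match may still hold a site.

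With RANKL the members went in different directions. In all 4 RANKL libraries *Mrc1* and *Cd68* lay above both unstimulated libraries, *Csf1r*, *Timd4* and *Fpr1* lay below both, and the other 4 overlapped. Over all 15894 genes tested, 18.9% had all 4 RANKL libraries above both unstimulated ones and 18.5% had all 4 below. The median log2 change of the 9 genes was -0.27, beside -0.02 over all genes tested. In bulk RNA, fewer cells of a type and less RNA per cell cannot be told apart.

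*Csf1r* (XLOC_009198, mm10 chr18:61105572-61131139) encodes the receptor on which most macrophages depend. Its level was 13.7 FPKM in WT and 14.8 FPKM in *Jmjd6*-/- stroma without RANKL. With RANKL it was 7.58 and 10.3 FPKM in WT and 8.86 and 10.5 FPKM in *Jmjd6*-/- stroma. Every RANKL library was lower than both controls, and the mean was 1.54-fold lower in WT and 1.53-fold lower in *Jmjd6*-/- stroma. The fitted log2 change over both genotypes was -0.62 (SE 0.15).

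*Cd68* (XLOC_003420, chr11:69664371-69666062) encodes a glycoprotein of macrophage lysosomes. It was at 25.2 FPKM in WT and 26.6 FPKM in *Jmjd6*-/- stroma without RANKL, and at 30.5 and 40.4 FPKM in WT and 27.1 and 29.4 FPKM in *Jmjd6*-/- stroma with it. The lowest RANKL value was only just above the higher control, and the fitted log2 change was 0.28 (SE 0.15), which became -0.00 with GC and length trends removed. *Lyz2* (XLOC_002190, chr10:117277541-117282272) encodes lysozyme, an enzyme of macrophages and neutrophils. It was at 323 and 290 FPKM without RANKL, at 346 and 336 FPKM in WT with RANKL, and at 285 and 323 FPKM in *Jmjd6*-/- stroma with RANKL, so the conditions overlapped. Reads of its neighbour *Lyz1*, a close paralog at 16.4 to 29.9 FPKM, may have been split between the pair.

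*Mrc1* (XLOC_010282, chr2:14229414-14332023) encodes the mannose receptor CD206, which takes up glycoproteins and is also made by some endothelial cells. It was at 4.93 FPKM in WT and 4.50 FPKM in *Jmjd6*-/- stroma without RANKL. With RANKL it was at 15.3 and 15.8 FPKM in WT, a mean of 15.5 ± 0.373 (SD, n = 2). It was at 11.9 and 10.8 FPKM in *Jmjd6*-/- stroma, a mean of 11.4 ± 0.753 (SD, n = 2). The means were 3.15-fold and 2.53-fold above the controls, and the fitted log2 change was 1.48 (SE 0.12). The ratio of *Mrc1* to *Csf1r* was 0.360 and 0.304 in the unstimulated libraries, and 2.02 and 1.54 in WT and 1.34 and 1.03 in *Jmjd6*-/- libraries with RANKL. Of 6 endothelial markers, 4 fell with RANKL in the limma fit described below, namely *Pecam1*, *Cdh5*, *Kdr* and *Tie1*, and their part in the higher *Mrc1* level was not tested. The 2 that did not pass, *Tek* and *Emcn*, had log2 changes of 0.19 and -0.25. The summed level of the 6 was 24.1 FPKM without and 13.3 and 13.2 FPKM with RANKL in WT. In *Jmjd6*-/- stroma it was 8.76 FPKM without and 4.81 and 4.20 FPKM with RANKL.

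*Timd4* (XLOC_002427, chr11:46810799-46844333) went furthest down. It was at 6.78 FPKM in WT and 8.82 FPKM in *Jmjd6*-/- stroma without RANKL. With RANKL it was at 0.714 and 2.32 FPKM in WT and at 0.913 and 0.450 FPKM in *Jmjd6*-/- stroma. The means were 4.47-fold lower in WT and 12.9-fold lower in *Jmjd6*-/- stroma, and the fitted log2 change was -2.94 (SE 0.52). The lowest value rested on about 17.6 fragments and the WT replicates differed 3.25-fold, so the size of this difference was imprecise. Relative to *Csf1r* the gene was also lower, going from 0.495 and 0.596 without RANKL to between 0.0429 and 0.226 with it.

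*Fpr1* (XLOC_008501, chr17:17876471-17883939) encodes a receptor for formylated peptides from bacteria and mitochondria, found on neutrophils and monocytes as well as macrophages. It was at 6.05 FPKM in WT and 4.29 FPKM in *Jmjd6*-/- stroma without RANKL. With RANKL it was at 1.29 and 0.788 FPKM in WT and 0.321 and 0.912 FPKM in *Jmjd6*-/- stroma. All 4 RANKL libraries were below both controls, the means were 5.82-fold lower in WT and 6.96-fold lower in *Jmjd6*-/- stroma, and the fitted log2 change was -2.61 (SE 0.38). The RANKL values rested on about 9.56 to 43.1 fragments.

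The 3 chains of C1q, the recognition subunit of the classical complement pathway, are encoded by neighbouring genes on chromosome 4. *C1qa* (XLOC_014417, chr4:136895916-136898844) was at 97.8 and 93.1 FPKM without RANKL, at 78.7 and 142 FPKM in WT and at 89.4 and 95.9 FPKM in *Jmjd6*-/- stroma with it. *C1qb* (XLOC_014415, chr4:136880145-136886177) was at 108 and 94.1 FPKM, then 69.1 and 120 FPKM in WT and 78.2 and 75.4 FPKM in *Jmjd6*-/- stroma. *C1qc* (XLOC_014416, chr4:136889802-136892914) was at 143 FPKM in both controls, then 93.3 and 146 FPKM in WT and 111 and 112 FPKM in *Jmjd6*-/- stroma. For all 3 chains the WT RANKL replicates lay on either side of the WT control and of the *Jmjd6*-/- RANKL pair, and the conditions overlapped. Fitted log2 changes were 0.05 (SE 0.22), -0.27 (SE 0.20) and -0.33 (SE 0.17), and that of *C1qa* ran from -0.29 to 0.23 over 15 alternatives. Within a library the chains kept close ratios, at 0.649 to 0.971 for *C1qa* to *C1qc* and 0.656 to 0.817 for *C1qb* to *C1qc*.

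**Figure D2:**
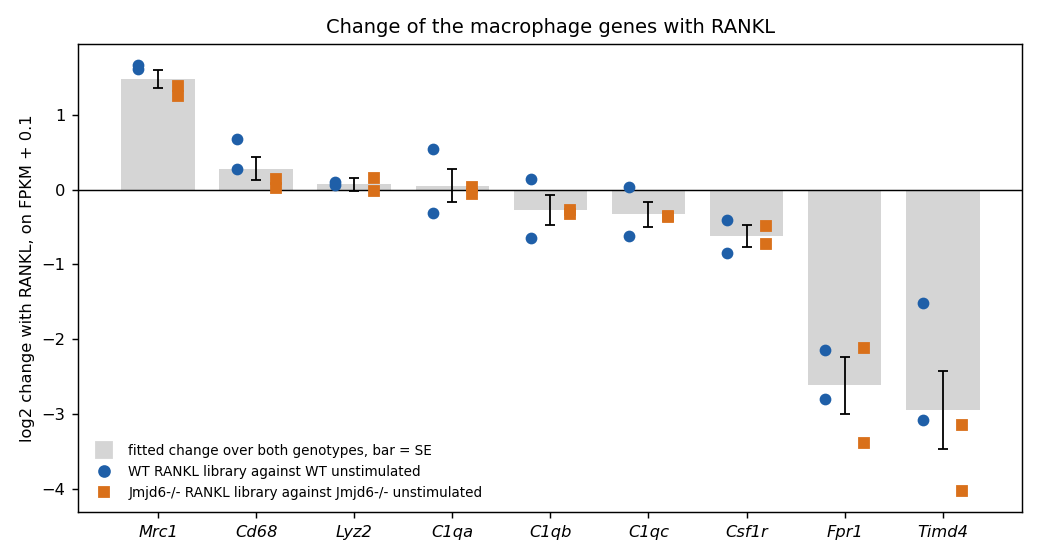
Log2 change with RANKL, on FPKM + 0.1, of the 9 genes. Bars are the fitted change over both genotypes with its SE, and points are single RANKL libraries against the unstimulated library of the same genotype (circles WT, squares *Jmjd6*-/-). *Mrc1* stands at 1.48, *Timd4* at -2.94 and *Fpr1* at -2.61, and the WT points of the C1q chains straddle 0.

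Over the 6 libraries, Pearson's r of log2 levels with *Csf1r* was 0.846 for *Timd4*, 0.833 for *C1qc*, 0.767 for *Fpr1* and 0.612 for *C1qb*. It was 0.240 for *C1qa*, -0.376 for *Cd68*, -0.375 for *Lyz2* and -0.900 for *Mrc1*. Among the C1q chains r was 0.931 for *C1qb* and *C1qc*, 0.819 for *C1qa* and *C1qb* and 0.695 for *C1qa* and *C1qc*. These values describe 6 libraries in 4 conditions, so they hold the shared response to RANKL and carry no p. The mean standardized profile of the 9 genes was most like those of *Gm13889* (r = 0.952), *Fam71e1* (r = 0.939), *Aif1* (r = 0.935), *Fcrls* (r = 0.934) and *Sox18* (r = 0.932), among 1830 genes averaging 1 FPKM or more with an SD of at least 0.5. *Aif1* was at 15.4 and 9.95 FPKM without RANKL. With RANKL it was at 4.82 and 16.2 FPKM in WT and at 3.79 and 3.54 FPKM in *Jmjd6*-/- stroma. Among the RANKL libraries it was thus high in WT replicate 2 and low in the other 3. *Gm13889*, *Fam71e1*, *Fcrls* and *Sox18* were also highest in WT replicate 2 among the RANKL libraries. Because members such as *Csf1r* and *Mrc1* ran opposite to each other, the mean profile does not stand for each member.

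Genes beyond the 10 were read from lists of known function, which were chosen with earlier results of these data known. Each gene was tested with limma on log2(FPKM + 0.1) with Benjamini-Hochberg adjustment over all 15894 genes. The calls and counts of the lists therefore describe these data and are not independent support. At an adjusted p under 0.05, 10.5% of all genes rose and 4.11% fell with RANKL. Of the 18 general macrophage genes, 5 rose, 4 fell and 9 did not pass, with a median log2 change of -0.12. The 5 that rose were the Fc receptors *Fcgr2b* and *Fcgr3*, the LPS co-receptor *Cd14*, the protease *Ctss* and *Trem2*, a lipid-sensing receptor. *Fcgr2b* went from 2.46 and 2.11 FPKM to 11.0 to 18.6 FPKM, a log2 change of 2.44 (SE 0.20, adjusted p = 0.000548). Those that fell included *Adgre1* (F4/80), the apoptotic cell receptor *Mertk* and the pore-forming *Mpeg1*. *Adgre1* went from 34.7 and 31.1 FPKM to 12.7 to 21.8 FPKM (adjusted p = 0.0159). *Lgmn*, encoding the lysosomal protease legumain, had 115 to 162 FPKM with no call. The genes of these counts outside the naming rule were named after their values were seen.

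Of the 19 resident and scavenger receptor genes, 13 were tested. Among them 2 rose, 3 fell and 8 did not pass, with a median log2 change of 0.18. The iron exporter *Slc40a1* fell from 40.4 and 47.1 FPKM to 16.4 to 18.4 FPKM, a log2 change of -1.34 (SE 0.09, adjusted p = 0.000269). *Cd5l*, a secreted protein of tissue macrophages, fell from 2.66 and 5.53 FPKM to 0.536 to 1.32 FPKM, and the scavenger receptor *Marco* fell from 1.07 and 2.19 FPKM to 0.324 to 0.755 FPKM. The scavenger receptor *Msr1* rose from 7.35 and 6.52 FPKM to 10.2 to 14.2 FPKM, and the chemokine *Ccl24* rose from at most 0.0327 FPKM to 0.503 to 2.61 FPKM. *Cbr2* and *Hmox1*, both abundant, did not pass. Taking both lists, 7 of 31 tested genes rose and 7 fell, and the counts became 1 and 3 without the WT unstimulated library and 1 and 1 without the *Jmjd6*-/- one.

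Of 7 transcription factors of macrophages, with a median log2 change of -0.28, none rose and 1 fell, *Spic*, which directs iron-recycling macrophages, from 3.52 and 4.42 FPKM to 1.17 to 2.30 FPKM (log2 change -1.22, SE 0.27, adjusted p = 0.0294). *Spi1*, encoding PU.1, was at 10.2 and 11.4 FPKM without RANKL and at 7.05 to 12.9 FPKM with it. Of 6 genes of the CSF1 and GM-CSF axis, 4 rose. *Csf1*, the ligand of the *Csf1r* product, rose from 10.6 and 7.30 FPKM to 11.9 to 13.5 FPKM (log2 change 0.54, SE 0.12, adjusted p = 0.0328) while its receptor gene was lower. *Csf2rb*, the shared chain of the GM-CSF receptor, rose from 1.75 and 2.27 FPKM to at most 13.2 FPKM, *Csf2rb2* rose with it, and the ligand gene *Csf2* rose from at most 0.0719 FPKM to 0.868 to 0.979 FPKM.

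Of 15 tested genes for uptake of apoptotic cells, 2 rose, 3 fell and 10 did not pass. The receptor kinases *Mertk* and *Tyro3* and the lipid receptor *Cd300a* fell. The *Timd4* relatives *Havcr1* and *Havcr2* rose from at most 0.269 FPKM to between 0.343 and 0.860 FPKM, opposite in direction to *Timd4* and still low. *Gas6*, the bridging ligand of *Mertk*, was abundant at 442 to 658 FPKM and did not pass. In the formyl peptide receptor list 2 genes were tested, the *Fpr1* paralog *Fpr2* and *Anxa1*, which encodes annexin A1, a ligand of these receptors. *Anxa1* was at 68.9 to 167 FPKM with a log2 change of 0.38 that did not pass. *Fpr2* fell from 2.05 and 1.99 FPKM to 0.362 to 0.555 FPKM (log2 change -1.91, SE 0.22, adjusted p = 0.00253), and *Fpr3*, *Fpr-rs3*, *Fpr-rs4* and *Fpr-rs6* were listed at 0 in all libraries.

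Of 7 genes of lysozyme and the phagocyte oxidase, 3 rose and 1 fell. The cytosolic oxidase subunits *Ncf1*, from 1.49 and 0.858 FPKM to 11.7 to 39.6 FPKM, and *Ncf4*, from 1.99 and 1.56 FPKM to 13.5 to 17.9 FPKM, rose, as did the membrane subunit *Cyba*. Its partner *Cybb* fell from 7.66 and 7.09 FPKM to 3.27 to 5.94 FPKM. Of 13 osteoclast genes, 5 rose and none fell. They were *Tnfrsf11a*, encoding RANK, *Atp6v0d2*, *Ctsk*, *Mmp9* and *Itgb3*. Among the 8 that did not pass, *Dcstamp*, *Calcr*, *Tcirg1* and *Nfatc1* had log2 changes of 1.38, 1.29, 0.22 and 0.01. Those of *Acp5*, *Clcn7*, *Ocstamp* and *Oscar* were -0.03, -0.09, -0.36 and -0.74. *Tnfrsf11a*, which thymic epithelium also expresses, rose from 1.84 and 2.41 FPKM to 12.6 to 16.1 FPKM, a log2 change of 2.70 (SE 0.14, adjusted p = 8.36e-05).

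Markers of other cells moved as well, and their part in the changes of *Fpr1*, *Lyz2*, *Csf1r* and *Timd4* was not tested. The study describes medullary epithelial cells as expressing antigens specific to other tissues. Which cells made the transcripts in this paragraph was not tested and cannot be told from bulk RNA. Of 8 pan-haematopoietic genes, 1 fell, *Ptprc* (CD45), from 6.81 and 6.74 FPKM to 2.89 to 3.56 FPKM, and the summed level was 81.9 and 94.2 FPKM without RANKL and 74.9 to 126 FPKM with it. Of 8 tested neutrophil genes, 4 rose, among them *S100a8* and *S100a9*, which epithelium also expresses. The granule genes *Mpo* and *Ngp* were the other 2 that rose, from 0 in both unstimulated libraries to 0.0967 to 2.03 FPKM. The 4 that did not pass had log2 changes of 1.42 for *Camp*, 0.22 for *Cxcr2*, -0.24 for *Csf3r* and -0.46 for *Ltf*. Of 6 tested monocyte and dendritic cell genes, 2 rose, *Ly6c2* and *Itgax*. Of 7 tested inflammatory activation genes, 2 rose, and of 3 tested alternative activation genes, 1 rose. Of 3 tested T cell genes, 1 rose, as did 1 of 5 mesenchymal and 1 of 6 thymic epithelial genes, while none of the 7 tested mast cell genes passed. Under RANKL, 4 of these mast cell genes were lower in *Jmjd6*-/- stroma, as were 1 monocyte and dendritic cell gene, *Ly6c2*, and 2 neutrophil genes, *Mpo* and *Ngp*, and the neutrophil gene *Ltf* was higher.

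**Figure D3:**
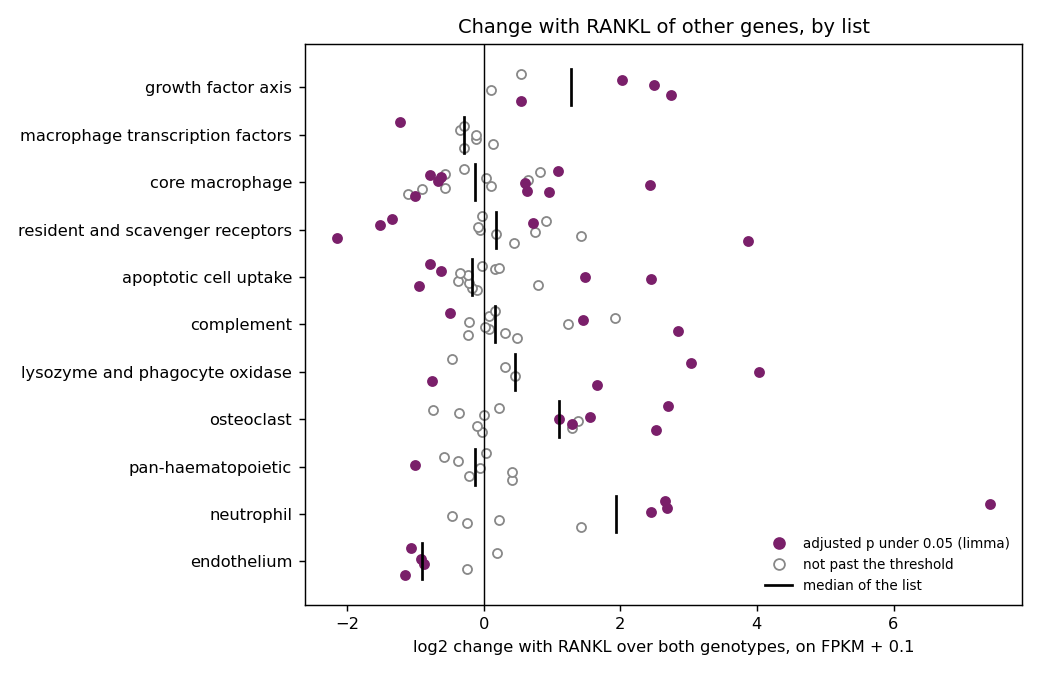
Log2 change with RANKL over both genotypes, on FPKM + 0.1, for the tested genes of 11 lists. Each point is a gene, filled where the adjusted p from limma is under 0.05, and the bar is the median of the list. The 18 general macrophage genes spread to both sides of 0 (5 rose, 4 fell), the 13 osteoclast genes include 5 rises and no fall, and 4 of 6 endothelial genes fall.

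None of the 9 tested members differed between the genotypes under RANKL by limma at an adjusted p under 0.05, and 1, *Mrc1*, had an unadjusted p under 0.05. Adjusted p-values ran from 0.163 to 0.910. Of all genes, 1.82% were called lower and 0.516% higher in *Jmjd6*-/- stroma. For *Cd68*, *Lyz2* and *Mrc1* the *Jmjd6*-/- RANKL pair did not overlap with the WT pair and was lower, and for 0 members it was higher, beside 26.2% and 24.5% of all genes. The log2 ratio of *Jmjd6*-/- to WT was below 0 in 8 of 9 members, with a median of -0.24, beside 0.01 over all genes. The share of all genes below 0 was not counted. The median was -0.47 without WT RANKL replicate 1 and -0.11 without WT RANKL replicate 2. In the latter fit *Csf1r*, *C1qa*, *C1qb* and *C1qc* were above 0.

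*Mrc1* came closest, with 11.4 FPKM in *Jmjd6*-/- and 15.5 FPKM in WT stroma, which is -0.45 on the log2 scale (SE 0.14, adjusted p = 0.163 by limma). In the same comparison 3 of 6 endothelial markers, *Pecam1*, *Cdh5* and *Tie1*, were lower in *Jmjd6*-/- stroma and none was higher, and their part in the *Mrc1* ratio was not tested. *Timd4* (-0.91, SE 0.58) and *Fpr1* (-0.77, SE 0.48) had larger log2 ratios with larger errors, and *Csf1r*, at 0.13 (SE 0.20), was the only member above 0. *Cd68* had a log2 ratio of -0.32 (SE 0.16) and *Lyz2* one of -0.17 (SE 0.12). Without stimulation each genotype had 1 library, and the values are given without a test. The ratio of *Jmjd6*-/- to WT ran from 0.710 for *Fpr1* to 1.30 for *Timd4*.

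The C1q chains gave log2 ratios of -0.19 (SE 0.28), -0.24 (SE 0.26) and -0.07 (SE 0.22) for *C1qa*, *C1qb* and *C1qc*, and these rested on which WT library was read. WT RANKL replicate 2 was 1.80, 1.73 and 1.57 times replicate 1 in the 3 genes, while *Jmjd6*-/- replicate 2 was 1.07, 0.964 and 1.01 times replicate 1. Without WT RANKL replicate 1 the log2 ratios were -0.62, -0.64 and -0.39, each called lower at an adjusted p of 0.0331, and *Cd68* was called too at -0.52 (adjusted p = 0.0362). In that fit the lone WT library is assumed to vary like the others, and 1737 of all genes were called lower and 2254 higher. Without WT RANKL replicate 2 the ratios turned to 0.23, 0.15 and 0.26, with no call. The higher value in WT replicate 2 was seen in 7 of 9 members, in 16 of 18 general macrophage genes in 8 of 8 pan-haematopoietic genes, in 11 of 13 osteoclast genes and in 5 of 6 thymic epithelial genes, beside 46.5% of all genes tested. It was seen in 8 of 13 resident and scavenger receptor genes, in 8 of 8 neutrophil genes, in 3 of 6 endothelial genes and in 0 of 7 mast cell genes. The C1q transcripts are rich in G and C, at 57.4% to 59.5%, and with each library's trend in GC content and length removed their log2 ratios were -0.00, -0.06 and 0.11. Whether cell content or library preparation sets the WT libraries apart was not tested.

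**Figure D4:**
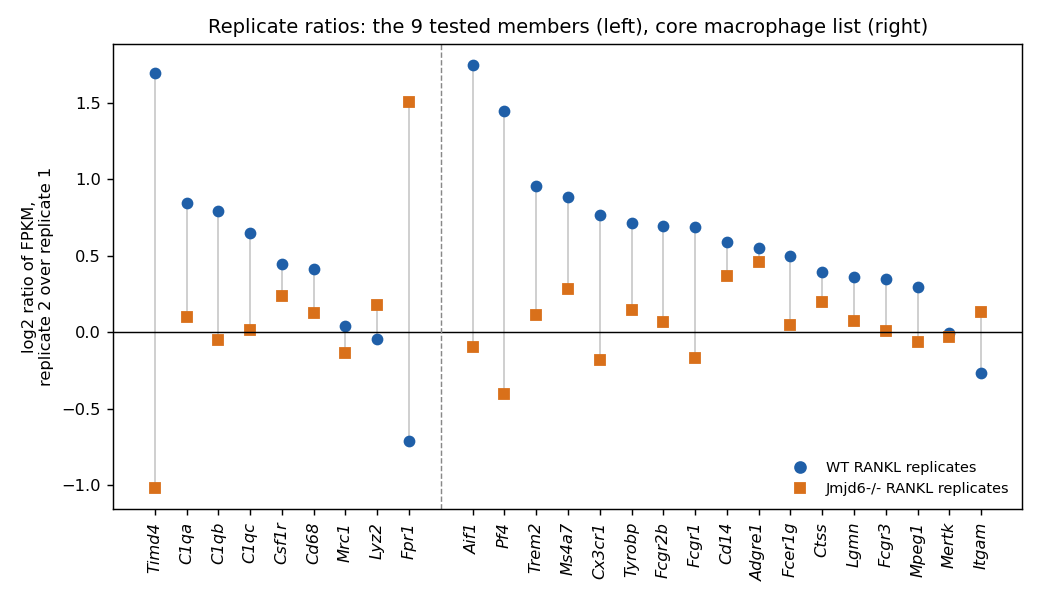
Log2 ratio of FPKM in RANKL replicate 2 to replicate 1 for the 9 tested members (left of the dashed line) and 17 general macrophage genes (right), as circles for WT and squares for *Jmjd6*-/- stroma. WT ratios lie above 0 in 7 of 9 and in 15 of 17 genes, and the 3 C1q chains have WT ratios of 1.57 to 1.80 on the linear scale.

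The response to RANKL itself was compared between genotypes with an interaction term, which rests on 1 unstimulated library per genotype. No gene was called (0.0% of 15894, with 664 at an unadjusted p under 0.05), and of the 9 members 0 had an unadjusted p under 0.05. The largest difference was that of *Timd4*, whose log2 response was lower by 1.28 in *Jmjd6*-/- stroma (interaction -1.28, SE 1.00, adjusted p = 1.0 by limma). For *Csf1r* the log2 responses differed by 0.02 (SE 0.34) and for *Mrc1* by -0.32 (SE 0.23).

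Around the C1q genes, the rest of the complement list differed between genotypes where the C1q chains had no call. Of 13 genes, 5 were lower in *Jmjd6*-/- stroma under RANKL and none was higher, with a median log2 ratio of -1.75. They were *C1ra* and *C1s*, whose proteases bind C1q, their inhibitor *Serping1*, *C3* and *Cfb*, all of which mesenchymal cells also express. *C1s* was at 25.5 and 21.0 FPKM in WT and at 7.69 and 6.06 FPKM in *Jmjd6*-/- stroma with RANKL, which is -1.75 on the log2 scale (SE 0.18, adjusted p = 0.0279 by limma). *C1ra* was at 10.1 and 10.5 FPKM against 3.24 and 2.41 FPKM (log2 ratio -1.85, adjusted p = 0.0280 by limma). Summed over the list, the WT RANKL libraries held 119 and 104 FPKM and the *Jmjd6*-/- ones 50.8 and 50.2 FPKM. Of 5 mesenchymal markers 1, *Col1a2*, was called lower as well, and the median log2 ratio of the 5 was -0.77. Their summed level with RANKL was 367 and 338 FPKM in WT and 247 and 241 FPKM in *Jmjd6*-/- stroma. Without RANKL that sum was 322 FPKM in WT and 152 FPKM in *Jmjd6*-/- stroma. The part of these markers in the complement ratios was not tested.

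No gene of either macrophage list was called between the genotypes under RANKL. Among the 18 general genes the median log2 ratio was -0.29 and among the 13 resident genes -0.33. In the first list the largest ratios at an average of 1 FPKM or more were those of *Pf4* (-1.38, SE 0.48, adjusted p = 0.208 by limma) and *Fcgr1* (-1.27, SE 0.27, adjusted p = 0.0820 by limma). In the second, *Stab1*, a scavenger receptor that endothelium shares, had the largest ratio among genes at that level, -1.10 (SE 0.21, adjusted p = 0.0643 by limma). *Csf2ra*, the ligand-binding chain of the GM-CSF receptor, was lower in *Jmjd6*-/- stroma, at 11.1 and 11.2 FPKM against 19.4 and 21.1 FPKM (log2 ratio -0.85, adjusted p = 0.0394 by limma). Among osteoclast genes *Mmp9* was lower, at 23.7 and 24.7 FPKM against 48.3 and 54.1 FPKM (log2 ratio -1.08, adjusted p = 0.0280 by limma).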

How the data were processed

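The data are 6 RNA libraries of thymic lobe cultures, made from poly-A RNA with the TruSeq v2 kit and sequenced in paired-end mode. Per the labels and methods, the authors mapped reads to mm10 with TopHat2 2.0.10 and deposited FPKM per gene from Cufflinks 2.1.1, run with multi-read correction and a stranded library type although the kit named does not mark strand. Values of genes that overlap on opposite strands carry that doubt. The deposited FPKM were used as they stand. Groups came from titles and stimulation labels. The treatment field gives RANKL for every sample.

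Members and gene lists were chosen with earlier results of these data known. From the files, log2(FPKM + 0.1) of the 15894 genes averaging 0.1 FPKM or more was fitted with limma 3.58.1 in R 4.3.3, using a trend of variance on mean and Benjamini-Hochberg adjusted p-values. The RANKL effect had genotype as a term, and the genotype contrast under RANKL used a mean for every condition. Genes of a list were named by a rule, the 3 with the highest mean and the 2 with the largest change among those averaging 1 FPKM or more, of which not all are printed, and others were named after their values were seen. Depth was estimated from the steps between FPKM values below 0.15, with 150 bases taken off the transcript length, and covers counting error only. The estimate was not checked against the total of reads that the study gives, so fragment numbers are approximate. The fits were tested on simulated data. Of 180 listed genes in 19 lists, 178 matched, and 1 is not reported here by name.

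Other settings tried were 1 or 0.01 added to FPKM, leaving the filter out or raising it to 1 FPKM, no trend, scaling to equal totals or median ratios, leaving out each library, a replicate block, the 4 RANKL libraries alone and, added after seeing the data, removal of GC and length trends.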

Additional observations from a re-analysis of the deposited data

Results flagged for a closer look

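For 6 genes named beside the members, both RANKL libraries of WT stroma lay above the WT control and both of *Jmjd6*-/- stroma lay below their own. The difference in log2 response, *Jmjd6*-/- minus WT, was -0.74 for *Fcgr1*, -0.34 for *Lgmn*, -0.61 for *Stab1*, -0.83 for *C1s*, -0.48 for *Serping1* and -4.25 for *Camp*. *Camp* was at 0 FPKM in the WT control and at 0.318 FPKM in the *Jmjd6*-/- control. With RANKL it was at 0.634 and 1.76 FPKM in WT and at 0.19 and 0.129 FPKM in *Jmjd6*-/- stroma. Its value therefore rests on low levels and on the 0.1 added to FPKM. None of these differences passed limma's interaction test at an adjusted p under 0.05 (adjusted p = 0.712 for *Camp* and 1.0 for the others), and each rests on 1 unstimulated library per genotype. None of the 9 tested members showed such opposite movement. Other listed genes, not flagged here, moved this way too or in the reverse direction. The share over all genes was not counted, so these counts have no base to be set against.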

How the results depend on the processing

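No member was called lower in *Jmjd6*-/- stroma under any alternative except without WT RANKL replicate 1, where 4 were (leaving out single RANKL libraries gave 0 to 4), and none was called higher. The members' median log2 change with RANKL was -0.61 with GC and length trends removed, where the median of all genes was -0.112. The replicate block could not be shown to pair libraries, since the deviations of same-numbered libraries correlated at -0.078 over 2 pairs, and with the replicate block 1628 genes rose and 610 fell with RANKL, the members' median genotype log2 ratio was -0.24, and 396 genes were higher and 1081 lower in *Jmjd6*-/- stroma. Genes rising with RANKL numbered 1675 and, without a filter, 788. Leaving out libraries gave 623 to 2165. Genes falling numbered 654, and 299 without a filter, 398 without the trend and 3102 with GC and length trends removed. Leaving out libraries gave 54 to 1478. Under RANKL 82 genes were higher in *Jmjd6*-/- stroma, and 1 without a filter and 388 with GC and length trends removed. Leaving out libraries gave 20 to 2254. Lower were 290, and 180 with 0.01 added, 1 without a filter, 172 with a filter at 1 FPKM and 665 with GC and length trends removed. Leaving out libraries gave 68 to 1737. Of the other macrophage genes 7 rose, and 1 without a filter, with 1 to 8 when libraries were left out. Of these genes 7 fell, and 3 without a filter and 11 with GC and length trends removed, with 1 to 11 when libraries were left out. Where no cause is given, the cause was not tested, and fits without a library have fewer samples. *Mrc1* kept its sign with RANKL in 15 of 15 alternatives (1.32 to 1.64), as did *Timd4* (-3.58 to -2.13) and *Fpr1* (-2.86 to -1.77). Depth limits *Timd4* and *Fpr1* under RANKL, with values of about 9.56 to 72.2 fragments, and *Cd163*, which was not detectable.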
